A study of Mus musculus with 6 samples.

Results

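The genes examined were 7 that set the balance of phosphate and pyrophosphate around cartilage cells or hold mineral in check in the matrix: Mgp, Ucma, Enpp1, Ank, Phospho1, Slc20a1 and Slc20a2. They were chosen by name, as the rows of the deposited gene table that carry these symbols, and each of the 7 had 1 row among the 33971 rows of the table. Articular cartilage of wild-type mice was sequenced at 2 ages to compare young with aged tissue, with 3 libraries from 2-month-old and 3 from 18-month-old animals. The labels name no strain, treatment or altered allele for either group. The labels do not say whether each library came from 1 animal or from a pool, so the p-values measure the spread between these libraries, which may be technical.

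Mineral forms in cartilage when inorganic phosphate and calcium exceed what the matrix can hold in solution, and inorganic pyrophosphate, which binds to growing crystals, opposes it. Cells raise extracellular pyrophosphate by cutting ATP outside the cell or by releasing it through a membrane protein, and tissue-nonspecific alkaline phosphatase (Alpl) breaks it down to phosphate. Articular cartilage normally stays free of mineral, whereas calcified cartilage and bone lie directly beneath it.

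The libraries held between 48171507 and 59085179 counts. Markers of other tissues moved with age, so their values are given before the results. The summed counts of 16 chondrocyte markers made up 7.54% to 8.87% of the 2-month libraries and 0.195% to 0.846% of the 18-month libraries, and 16 of 16 were called lower at 18 months. The most abundant of them was Prg4 or Col2a1 at 2 months, none was at 0 in a 2-month library, and 2 were at 0 in 18-month replicate 3. All 5 hypertrophic chondrocyte markers were called lower (0.972% to 1.09% against 0.0823% to 0.0991%). The most abundant neutrophil marker was S100a9 at 18 months and in 2-month replicate 2, S100a8 in 2-month replicate 1 and Mmp9 in 2-month replicate 3. Neutrophil markers took 0.00175% to 0.563% at 2 months and 4.29% to 4.60% at 18 months, and erythroid markers, led by Hbb-bs, took 0.0248% to 0.670% and 2.74% to 3.62%. Of these, 0 of 14 neutrophil (3 at an unadjusted p under 0.05) and 3 of 12 erythroid genes were called higher by edgeR, while 13 and 12 had every 18-month library above every 2-month library. Among all 20397 genes tested, 14.9% were called higher and 21.3% lower, and 6917 had every 18-month library above every 2-month library. Osteoblast and osteocyte markers took 0.451% to 2.78% at 2 months and 0.661% to 0.675% at 18 months, with 3 of 10 called lower. Fibroblast and tendon markers took 0.476% to 0.689% and 0.0503% to 0.109%, with 5 of 9 called lower and 2 higher, and endothelial (1 of 7 called higher), smooth muscle (2 of 4 called lower) and skeletal muscle markers (5 of 6 tested called lower) each took at most 0.0362% of any library. The part of these tissues in the results below was not tested.

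A pair of libraries stood apart from the others of their age. In 2-month replicate 2, the summed osteoblast markers were 5.62 times, the erythroid markers 14.1 times and the neutrophil markers 39.3 times the mean of the other 2-month libraries, with chondrocyte markers at 1.01 times. Endothelial markers were at 8.95 and skeletal muscle markers at 2.57 times there, but fibroblast and tendon markers at 0.76 and smooth muscle markers at 0.41 times. In 18-month replicate 1, chondrocyte markers were 4.33 times and fibroblast and tendon markers 2.15 times the mean of the other 18-month libraries. The remaining lists lay between 0.76 and 1.19 times. Xist, transcribed from the inactive X chromosome, had 88239 to 102417 counts at 2 months and 11 to 30 at 18 months, and the Y-linked Ddx3y had 0 to 10 and 4333 to 4839, although the study's methods describe male mice. Age and this difference in sex pattern cannot be told apart here.

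All 7 genes passed the filter on low counts. A gene was called where the quasi-likelihood test of edgeR gave an adjusted p (Benjamini-Hochberg, over all genes) under 0.05 and the log2 fold change was beyond 1 in size. Of the 7 genes, 5 were called lower at 18 months (Mgp, Ucma, Enpp1, Ank and Slc20a1), 0 were called higher and 2 were not called (Phospho1 and Slc20a2). Among 20397 genes tested, 36.3% were called, 21.3% lower and 14.9% higher. At an unadjusted p under 0.05, 0 of the 7 lay above 0, and DESeq2 and limma called 0 higher as well. In the same 5 genes every 18-month library lay below every 2-month library, as did 34.6% of all genes tested. The median log2 fold change of the 7 genes was -1.86, beside -0.02 over all genes tested, and their values ran from -4.77 to -0.12. In bulk tissue, fewer cells of a type and less RNA per cell cannot be told apart.

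**Figure D1:**
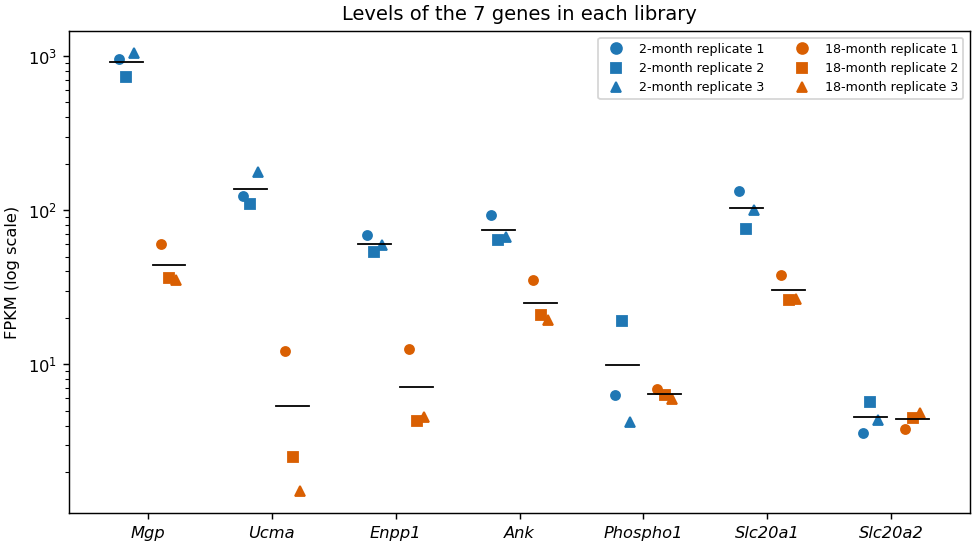
FPKM (log axis) of the 7 genes in each of the 6 libraries, with 2-month libraries and 18-month libraries side by side and a line at each age's mean. The 18-month points of Mgp, Ucma, Enpp1, Ank and Slc20a1 lie below all of their 2-month points, while those of Phospho1 and Slc20a2 overlap.

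Both Gla proteins, small secreted proteins whose glutamates are carboxylated with the help of vitamin K, fell with age. Mgp (ENSMUSG00000030218, GRCm38 chr6:136872435-136875823, minus strand) encodes matrix Gla protein, an inhibitor of calcification in cartilage and arteries. Its level was 951, 727 and 1043 FPKM in the 2-month libraries and 60.5, 36.4 and 35.1 FPKM in the 18-month libraries. Every 18-month library was far below every 2-month library, and 18-month replicate 1 was the highest of its age. Mean Mgp level was 907 ± 162 FPKM (SD, n = 3) against 44.0 ± 14.3 FPKM, a log2 fold change of -4.46 ± 0.33 (SE) with an adjusted p of 0.00092 by edgeR.

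Ucma (ENSMUSG00000026668, GRCm38 chr2:4976122-4985748, plus strand), also known as Gla-rich protein, is a secreted protein of the cartilage matrix that inhibits calcification. Its level was 123, 110.0 and 177 FPKM at 2 months and 12.2, 2.49 and 1.50 FPKM at 18 months. The ages did not overlap, but 18-month replicate 1, the library with the most chondrocyte marker counts of its age, stood well above the other two. The means were 137 ± 35.8 FPKM and 5.40 ± 5.91 FPKM (SD, n = 3), and the log2 fold change was -4.77 ± 0.90 (SE) with an adjusted p of 0.0078 by edgeR. Without 18-month replicate 1 it was -6.14 (adjusted p = 0.0024).

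The supply of extracellular pyrophosphate is served by Enpp1 and Ank, and transcripts of both fell, Enpp1 by more in point estimate. Enpp1 (ENSMUSG00000037370, GRCm38 chr10:24637914-24712159, minus strand) encodes the ectoenzyme that cuts ATP into AMP and pyrophosphate. It measured 68.7, 53.5 and 59.4 FPKM at 2 months and 12.6, 4.31 and 4.52 FPKM at 18 months. The ages did not overlap, and 18-month replicate 1 was again the highest of its age, at 2.74 times the mean of the other two in CPM (counts scaled to the same library total). Mean Enpp1 level was 60.5 ± 7.67 FPKM and 7.13 ± 4.70 FPKM (SD, n = 3), a log2 fold change of -3.18 ± 0.48 (SE) with an adjusted p of 0.0041 by edgeR, and it was -3.84 (adjusted p = 0.0017) without 18-month replicate 1.

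Ank (ENSMUSG00000022265, GRCm38 chr15:27466677-27594909, plus strand) encodes the progressive ankylosis protein, a membrane protein through which cells release pyrophosphate or the ATP it is made from. It measured 92.5, 63.9 and 67.2 FPKM at 2 months and 35.1, 20.9 and 19.4 FPKM at 18 months. Replicate 1 was the highest library at both ages, and the ages did not overlap. The means were 74.5 ± 15.6 FPKM and 25.1 ± 8.65 FPKM (SD, n = 3), and the log2 fold change was -1.66 ± 0.29 (SE) with an adjusted p of 0.0062 by edgeR. The difference between the changes of Enpp1 and Ank was not tested.

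The sodium-dependent phosphate transporters Slc20a1 (PiT-1) and Slc20a2 (PiT-2), which bring phosphate into the cell, differed in their values. Slc20a1 (ENSMUSG00000027397, GRCm38 chr2:129198764-129211616, plus strand) measured 133, 75.3 and 99.4 FPKM at 2 months and 38.0, 26.0 and 26.6 FPKM at 18 months. Every 18-month library lay below the lowest 2-month library, replicate 2. Mean Slc20a1 level was 103 ± 28.9 FPKM and 30.2 ± 6.76 FPKM (SD, n = 3), a log2 fold change of -1.86 ± 0.29 (SE) with an adjusted p of 0.0045 by edgeR.

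Slc20a2 (ENSMUSG00000037656, GRCm38 chr8:22476788-22569612, plus strand) measured 3.57, 5.69 and 4.35 FPKM at 2 months and 3.81, 4.51 and 4.84 FPKM at 18 months. All 18-month values lay inside the 2-month range. The means were 4.54 ± 1.07 FPKM and 4.38 ± 0.524 FPKM (SD, n = 3), and the log2 fold change was -0.12 ± 0.18 (SE) with an adjusted p of 0.62 by edgeR, which does not show that the ages were alike.

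Phospho1 (ENSMUSG00000050860, GRCm38 chr11:95824499-95832140, plus strand) encodes a phosphatase of matrix vesicles that frees phosphate from phosphocholine and phosphoethanolamine at the start of mineralization. It measured 6.30, 19.1 and 4.24 FPKM at 2 months and 6.96, 6.28 and 5.97 FPKM at 18 months. The 2-month libraries spanned the 18-month range, and replicate 2, the library rich in osteoblast and blood cell markers, stood far above the others. Mean Phospho1 level was 9.89 ± 8.07 FPKM and 6.40 ± 0.505 FPKM (SD, n = 3), with a log2 fold change of -0.67 ± 0.52 (SE) and an adjusted p of 0.32 by edgeR. Without 2-month replicate 2 the sign turned, to 0.18 ± 0.20 (SE, adjusted p = 0.45).

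**Figure D2:**
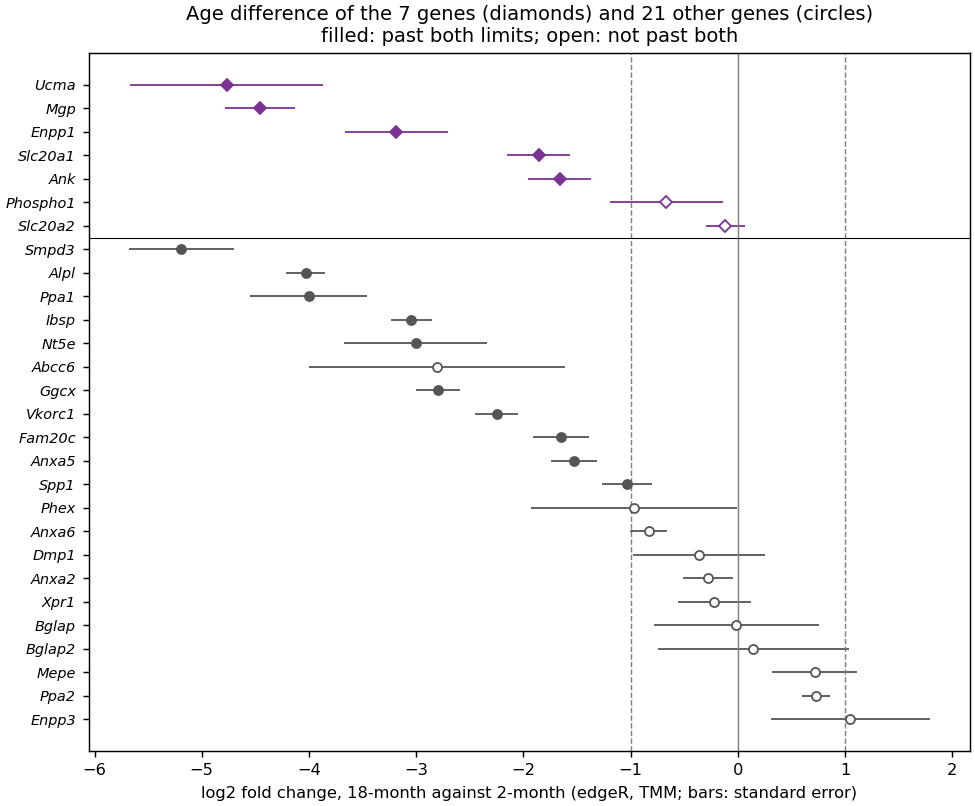
Log2 fold change, 18 against 2 months, of the 7 genes and of the 21 tested genes of a wider mineralization list, with bars of 1 SE and dashed lines at the limits of -1 and 1. Filled points are called genes and open points are not, and among the circles the called genes lie left of -1, from Spp1 at -1.03 to Smpd3 at -5.19.

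Neighbouring genes affect how far the counts can be assigned. In the annotation, 9830144P21Rik lies antisense to Slc20a1, with 3083, 2034 and 2833 counts at 2 months and 895, 559 and 653 at 18 months, so it moved with Slc20a1. Gm4430, also antisense to Slc20a1, went the other way, with 124, 158 and 162 counts at 2 months and 273, 296 and 191 at 18 months. Abi3 overlaps Phospho1 on the other strand, with 119, 2442 and 281 counts at 2 months and 2421, 1914 and 1888 at 18 months. Ank overlaps Otulin and Slc20a2 overlaps Smim19, each on the other strand. The libraries keep strand, but whether the counting used it is not stated, so reads of these pairs may not be fully separated. On the same strand, where strand cannot separate reads, Zfp652 overlaps Phospho1, with 4980 to 7569 counts against 484 to 2272 for Phospho1, and Gm17491 overlaps Slc20a2, with 511 to 679 against 1221 to 2071. Ank also overlaps Tiaf2 on its own strand, with 0 to 58 counts, while Mgp, Ucma and Enpp1 overlap no other gene.

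Promoter sequence was available in RefSeq (GRCm38.p6) for 5 of the 7 genes. The 250 bases before the start were searched on both strands for TGTGGT (the core bound by RUNX factors), ACAAT (SOX core), CCAAT (the box bound by NF-Y), TATAAA (the TATA box) and CACGTG (an E-box). TGTGGT was found in 3 of the 5, in Ucma, Enpp1 and Slc20a1, beside 14.0% of 32851 RefSeq promoters. CCAAT was found in Ucma, Phospho1 and Slc20a1 (33.8% of promoters), CACGTG in Phospho1 and Slc20a1 (6.02%), and ACAAT (27.7%) and TATAAA (12.4%) in none. The Ank window, with 81.2% G and C bases, held none of the 5. RUNX2 directs osteoblast and hypertrophic chondrocyte genes, so the windows of the 3 genes holding its core are shown, followed by that of Phospho1, which did not hold it. Of the genes without the core, Ank was called lower and Phospho1 was not called. A link between the core and the age difference was not tested. Capitals mark the matches on either strand, and each window is written 5′ to 3′ along its gene. They are Ucma at chr2:4975872-4976121 (plus), Enpp1 at chr10:24712160-24712409 (minus), Slc20a1 at chr2:129198523-129198772 (plus) and Phospho1 at chr11:95824250-95824499 (plus).
Ucma: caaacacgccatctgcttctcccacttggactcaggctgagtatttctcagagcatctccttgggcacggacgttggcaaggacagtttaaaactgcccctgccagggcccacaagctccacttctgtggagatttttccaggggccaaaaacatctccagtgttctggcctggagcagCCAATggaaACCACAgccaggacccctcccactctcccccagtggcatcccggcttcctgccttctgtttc
Enpp1: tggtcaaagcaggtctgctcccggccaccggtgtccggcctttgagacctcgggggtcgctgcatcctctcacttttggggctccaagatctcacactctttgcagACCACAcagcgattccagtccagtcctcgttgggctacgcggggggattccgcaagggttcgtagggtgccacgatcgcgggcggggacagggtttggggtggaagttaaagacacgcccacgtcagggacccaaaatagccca
Slc20a1: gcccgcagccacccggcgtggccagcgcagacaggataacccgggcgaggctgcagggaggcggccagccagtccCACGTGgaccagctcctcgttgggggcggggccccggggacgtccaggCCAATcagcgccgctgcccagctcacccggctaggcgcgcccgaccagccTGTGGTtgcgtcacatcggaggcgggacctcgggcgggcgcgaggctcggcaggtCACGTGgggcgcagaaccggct
Phospho1: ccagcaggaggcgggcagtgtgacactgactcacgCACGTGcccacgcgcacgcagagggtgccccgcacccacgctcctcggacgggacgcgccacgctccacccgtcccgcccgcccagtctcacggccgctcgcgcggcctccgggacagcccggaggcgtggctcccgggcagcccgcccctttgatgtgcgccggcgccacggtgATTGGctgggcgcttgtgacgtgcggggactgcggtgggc
The TGTGGT match began 62 bases before the start in Ucma, 144 in Enpp1 and 77 in Slc20a1, and reads ACCACA where it lies on the other strand. Slc20a1 held CACGTG at 2 places, 175 and 22 bases before the start, and Phospho1 held it 215 bases before. A match describes letters only, and binding was not measured.

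Set in order by FPKM, the 2-month levels ran Mgp, Ucma, Slc20a1, Ank, Enpp1, Phospho1, Slc20a2. At that age the lowest Mgp value lay above the highest of Ucma, and the lowest Enpp1 value above the highest of Phospho1. The ranges of the other 4 neighbouring pairs overlapped between libraries. Within each 2-month library, however, Slc20a1 lay above Ank and Ank above Enpp1. At 18 months the order was Mgp, Slc20a1, Ank, Enpp1, Phospho1, Ucma, Slc20a2. Among neighbours, only the ranges of Ank and Enpp1 did not overlap between libraries. Within each 18-month library, Mgp lay above Slc20a1 and Slc20a1 above Ank. Ucma thus stood above Slc20a1, Ank, Enpp1 and Phospho1 in mean level at 2 months and below them at 18 months. Its 18-month range overlapped those of Enpp1, Phospho1 and Slc20a2, and in 18-month replicate 1 it lay above Phospho1 (12.2 against 6.96 FPKM). In 2-month replicate 1, Ucma already lay below Slc20a1 (123 against 133 FPKM).

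Ratios within a library do not depend on library scaling, and 5 were compared as log2 of FPKM + 0.1. With 3 libraries against 3, the smallest 2-sided p of the exact permutation test is 0.1, so none could pass 0.05. The Slc20a1 to Slc20a2 ratio was 37.2, 13.2 and 22.8 at 2 months and 9.98, 5.77 and 5.51 at 18 months. The transporters were therefore closer in level in each aged library, with a shift of -1.71 on the log2 scale (exact permutation p = 0.1, adjusted over 5 ratios 0.167).

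Against Alpl, the phosphatase that removes pyrophosphate, the genes of pyrophosphate supply differed. Alpl itself measured 227, 266 and 273 FPKM at 2 months and 19.0, 15.8 and 14.6 FPKM at 18 months. The ratio of Ank to Alpl was 0.408, 0.241 and 0.246 at 2 months and 1.84, 1.32 and 1.33 at 18 months, a shift of 2.35 (exact permutation p = 0.1, adjusted 0.167). Ank transcripts were thus fewer than Alpl transcripts per length in each young library and more in each aged one. The Enpp1 to Alpl ratio was 0.303, 0.201 and 0.217 and then 0.660, 0.273 and 0.309, which overlapped (shift 0.70, exact permutation p = 0.2, adjusted 0.25), and the shift was 0.31 without 18-month replicate 1.

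Alpl exceeded Phospho1 by 36.0, 13.9 and 64.5 times in FPKM at 2 months and by 2.74, 2.52 and 2.45 times at 18 months. The ages did not overlap, the log2 ratio of Phospho1 to Alpl shifted by 3.63 (exact permutation p = 0.1, adjusted 0.167), and the shift was 4.22 without 2-month replicate 2. Between the Gla proteins, the log2 ratio of Ucma to Mgp was -2.74 ± 0.20 (SD, n = 3) at 2 months and -3.53 ± 1.11 at 18 months. The ages overlapped, with a shift of -0.78 (exact permutation p = 0.4, adjusted 0.4) that was -1.39 without 18-month replicate 1 and -0.32 without 18-month replicate 3.

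**Figure D3:**
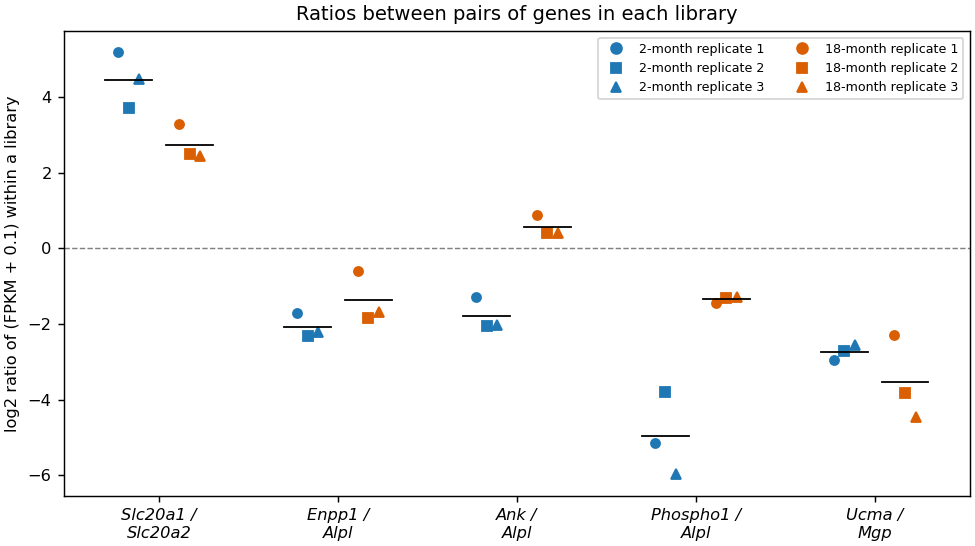
Log2 ratio of FPKM + 0.1 between 5 pairs of genes in each of the 6 libraries, with a line at the mean of each age and a dashed line at 0, where both genes are equal. Ank to Alpl crosses 0 between the ages, while Enpp1 to Alpl and Ucma to Mgp overlap.

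The libraries that stood apart did so unequally over the 7 genes. In 2-month replicate 2, Phospho1 was at 3.29 times and Slc20a2 at 1.3 times the mean of the other 2-month libraries in CPM, whereas Mgp, Ucma, Enpp1, Ank and Slc20a1 were at 0.66, 0.67, 0.76, 0.73 and 0.59 times. Phospho1 was therefore high in the library where the osteoblast and blood cell markers were high, and the 5 genes that fell with age were low there. In 18-month replicate 1, Ucma was at 5.81 times and Enpp1 at 2.74 times the other 18-month libraries, then Ank at 1.67, Mgp at 1.63, Slc20a1 at 1.39, Phospho1 at 1.09 and Slc20a2 at 0.78 times. Ucma came closest to the chondrocyte markers (4.33 times), and Alpl, at 1.20 times, lay near the hypertrophic markers (1.19 times). The fibroblast and tendon markers (2.15 times) lay between Enpp1 and Ank. Phospho1 lay between the osteoblast markers (0.99 times) and the hypertrophic markers. With both libraries left out, an alternative chosen after the data were seen, the same 5 genes were called lower, at -4.89 for Mgp, -6.30 for Ucma, -3.95 for Enpp1, -2.07 for Ank and -2.23 for Slc20a1.

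**Figure D4:**
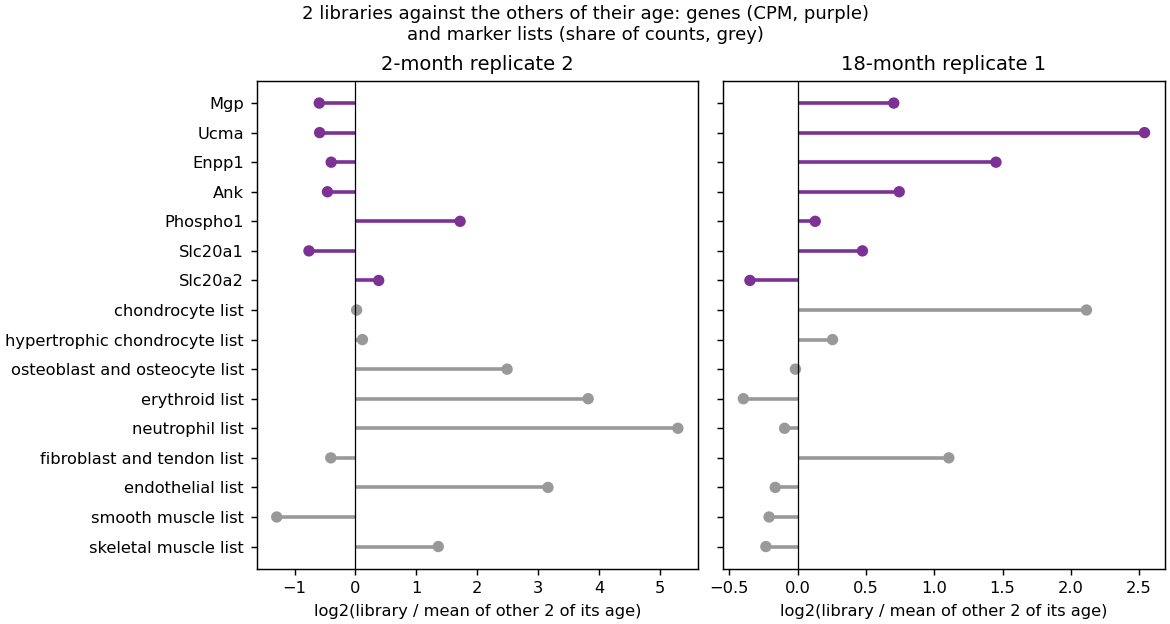
Log2 ratio of 2-month replicate 2 (left) and of 18-month replicate 1 (right) to the mean of the other libraries of the same age, for the 7 genes (CPM, purple) and the 9 marker lists (share of counts, grey), with a separate scale in each panel. Phospho1 lies on the side of the osteoblast, erythroid and neutrophil markers in 2-month replicate 2, and Ucma lies nearest the chondrocyte markers in 18-month replicate 1.

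Because the chondrocyte markers fell so far, each gene was also set against their summed CPM, a comparison made after the values were seen. On the log2 scale Mgp was at -5.88, -6.41 and -5.94 at 2 months and at -6.69, -5.31 and -5.35 at 18 months. Its overlap rested on 18-month replicate 1, the library with 4.33 times the chondrocyte markers of the others, which lay below every young library while the other two lay above every one. Ucma was at -9.25, -9.56 and -8.92 and then at -9.43, -9.59 and -10.30, with 18-month replicate 1 inside the 2-month range and the other two below it. The other 5 genes had every aged library above every young one, with a rise of 1.42 for Enpp1, 2.94 for Slc20a1, 3.08 for Ank, 4.36 for Phospho1 and 4.65 for Slc20a2. Alpl behaved as Mgp did, at -6.18, -6.10 and -6.11 at 2 months and at -6.60, -4.75 and -4.85 at 18 months, with 18-month replicate 1 below every young library and the other two above. No test was run on these ratios, in which the summed markers are the same for every gene of a library. Any gene that fell less than the markers rises by this measure, as Slc20a2 did with a log2 fold change of -0.12. A rise here therefore does not show more of a transcript.

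**Figure D5:**
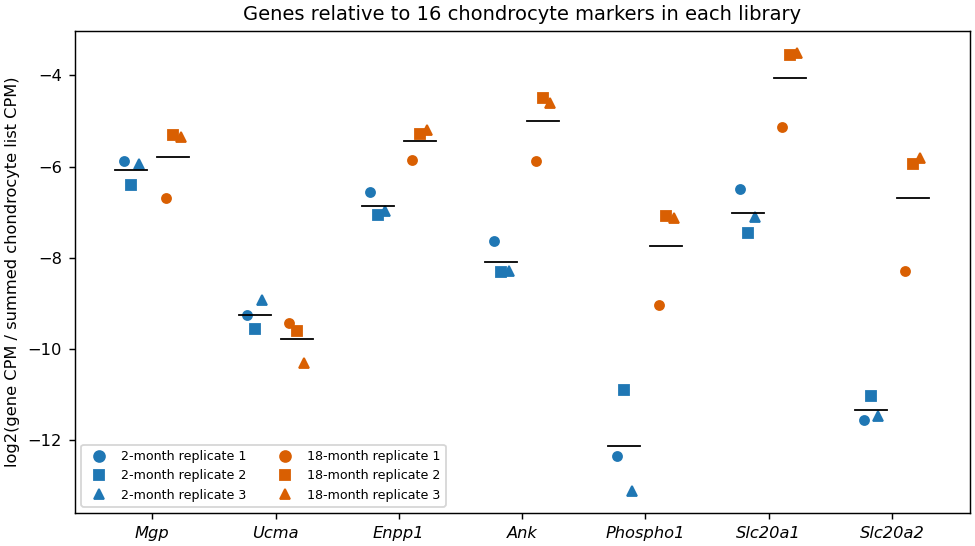
Log2 ratio of each of the 7 genes to the summed CPM of the 16 chondrocyte markers in each of the 6 libraries, with a line at the mean of each age. For Mgp, 18-month replicate 1 lies below and the other aged libraries above all young ones, Ucma overlaps between the ages, and the other 5 genes lie higher in every 18-month library.

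The profiles of the 7 genes over the 6 libraries were compared by the root mean square difference of mean-centred log2(CPM + 1), a measure that compresses genes of low count. Ank and Slc20a1 were the closest pair, at 0.16, and Ucma and Slc20a2 the farthest apart, at 2.54. Phospho1 and Slc20a2 differed by 0.53, Mgp and Ucma by 0.54, and Mgp and Enpp1 by 0.63. The 6 points behind each distance share library and depth.

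Among 13899 genes with a mean of at least 1 FPKM, the 3 closest to each member were listed with their log2 fold changes. Closest to Slc20a1 were Sgk1, a hormone-responsive kinase (distance 0.046, -1.90), Pgm3 of the hexosamine pathway (0.057, -1.93) and Cpq (0.093, -1.88). Ank was nearest to Kifc3 (0.078, -1.66), Lrrc1 (0.11, -1.74) and the transcription factor Nfib (0.12, -1.80), and Enpp1 to the cytoskeletal linker Dst (0.093, -3.11), B230206H07Rik (0.11, -3.82) and Ntn1, which encodes netrin-1 (0.11, -3.23). For Ucma they were Cspg4, a membrane proteoglycan (0.19, -4.65), Colgalt2, a collagen galactosyltransferase (0.20, -4.55), and Scube1 (0.26, -4.44). Those of Mgp were Gm45397 (0.094, -6.96), Map2 (0.12, -5.78) and Nckap5 (0.12, -6.12), whose log2 fold changes exceed that of Mgp. The genes without a call were nearest to Pcdh18 (0.11, -0.53), Steap4 (0.13, -0.46) and Gja1, which encodes connexin 43 (0.16, -0.55), for Phospho1, and to Rab26os (0.031, -0.17), H3c15 (0.065, -0.09) and mt-Nd6 (0.071, -0.12) for Slc20a2.

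A wider list of 25 genes of phosphate, pyrophosphate and matrix mineral control was read beside the 7. Of these 24 were in the table and 21 passed the filter (Slc34a1, Slc34a2 and Ahsg did not, and Slc34a3 was not analysed here). By edgeR, 10 were called lower, 0 higher and 11 were not called, with a median log2 fold change of -1.03, and 12 had every aged library below every young one. At an unadjusted p under 0.05, 1 gene lay above 0, and DESeq2 and limma called 0 higher. The counts of calls stand beside the 21.3% and 14.9% of all genes given above, and the 12 genes without overlap beside 34.6% of all genes.

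Among enzymes of phosphate and pyrophosphate, Alpl fell from 255 ± 25.0 to 16.5 ± 2.28 FPKM (SD, n = 3), with a log2 fold change of -4.03 ± 0.18 (SE). Nt5e, the CD73 enzyme that frees phosphate from AMP, had a log2 fold change of -3.00 ± 0.67, and Ppa1, the cytosolic pyrophosphatase, one of -4.00 ± 0.54. Smpd3, a sphingomyelinase that yields phosphocholine, fell from 170 to 4.94 FPKM in mean level, with a log2 fold change of -5.19 ± 0.49. Both enzymes that Gla proteins need were also lower, with log2 fold changes of -2.80 ± 0.20 for the carboxylase Ggcx and -2.25 ± 0.20 for Vkorc1, which recycles vitamin K. Transcripts of Mgp and Ucma were thus lower in the same libraries as those of Ggcx and Vkorc1. Adjusted p-values of these 6 genes lay between 0.00071 and 0.014.

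Of the matrix genes on the list, Ibsp (bone sialoprotein) went from 1489 to 190 FPKM in mean level, a log2 fold change of -3.05 ± 0.19. Spp1, which encodes osteopontin, was called at -1.03 ± 0.23 (adjusted p = 0.014 by edgeR), just past the fold limit, and lost its call without 2-month replicate 2, at -0.98. Fam20c, the kinase of secreted phosphoproteins, and Anxa5, a matrix vesicle annexin, had log2 fold changes of -1.65 ± 0.26 and -1.53 ± 0.21. A pair of genes, named after their values were seen, passed the adjusted p by edgeR but not the fold limit: Ppa2, the mitochondrial pyrophosphatase, at 0.73 (adjusted p = 0.0064), and Anxa6, an annexin, at -0.83 (adjusted p = 0.011).

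Several genes of the list depended on 2-month replicate 2, and they are named here after their values were seen. Phex, an osteocyte gene whose loss lowers blood phosphate, measured 2.45, 24.8 and 2.03 FPKM at 2 months and 4.50, 5.11 and 5.41 FPKM at 18 months. Bglap, which encodes osteocalcin, measured 118, 714 and 90.0 FPKM and then 295, 319 and 309.8 FPKM. It may share reads with its near-identical copy Bglap2, but such sharing was not examined. Phex and Bglap were each highest in 2-month replicate 2 and otherwise higher at 18 months. Without that library, 5 genes of the list were called higher by edgeR, at 1.47 for Bglap, 1.99 for Bglap2, 2.38 for Enpp3, 1.07 for Mepe and 1.07 for Phex. In that comparison 23.3% of 21489 genes tested were called higher, so the count for the list was near that of all genes, and Phospho1 was not called. Ibsp at -3.00 and Fam20c at -1.29 did not turn and were still called lower. Dmp1 turned from -0.36 with all libraries to 0.67 without that library, and it was not called in either. Mepe, at 75.7, 39.0 and 35.6 FPKM in the 18-month libraries, lost its call when 18-month replicate 1 was left out as well, at 0.66.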

How the data were processed

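RNA-seq of mouse articular cartilage was read from 1 table for all 6 libraries. The authors deposited counts per gene, whole numbers without normalization, and FPKM values, scaled by the authors to transcript length and library size. The submitters' processing notes name cutadapt 1.9, HISAT2 2.0.4, UMI-tools and StringTie 1.3.4d, with no parameters, and the strand setting of counting is not given in the sources used here. Groups came from the ages in the labels, and all pairs of libraries differed beyond sampling noise. Counts were normalised by TMM, filtered with filterByExpr and tested in edgeR 4.0.16 (R 4.3.3) over all 20397 genes that passed, without covariates. A gene was called at an adjusted p under 0.05 and a log2 fold change beyond 1. Ratios used FPKM + 0.1 and an exact permutation test (scipy 1.17.1). Scripts were tested on simulated data. The alternatives were other scalings, no filter, DESeq2 1.42.0, limma 3.58.1 on log2(FPKM + 0.1, 1 or 0.01), a replicate block and leaving out each library. Leaving out both libraries that stood apart, and the ratios to chondrocyte markers, were chosen after the data were seen. The 7 genes, the wider list and the 9 marker lists were chosen with earlier results of these data known. By rule, the text names the 7 genes, called genes of the wider list with a mean of at least 1 FPKM, Alpl, 3 genes nearest each member and the leading gene of a marker list, and says where it names others. Positions of the 7 genes were identical to GENCODE M21. Value columns not used numbered 0.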

Additional observations from a re-analysis of the deposited data

How the results depend on the processing

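The calls of Mgp, Ucma, Enpp1, Ank and Slc20a1 kept their direction and stayed past the threshold in 80 of 80 values over 16 alternatives each, with ranges of -4.89 to -4.32, -6.30 to -4.32, -3.95 to -2.92, -2.07 to -1.45 and -2.23 to -1.60, and 5 members lower and 0 higher in every alternative. Their highest adjusted p was 0.032, for Ucma without 18-month replicate 2. Phospho1 ran from -1.01 to 0.18 when each library was left out in turn, and Slc20a2 from -0.24 to 0.050. Both changed sign without 2-month replicate 2 (0.18 and 0.050) and without that library and 18-month replicate 1 together (0.13 and 0.15), and neither was called. Genes of the wider list called higher ran from 0 to 5 over the libraries left out in turn, with 5 without 2-month replicate 2 and 4 without both libraries. Those called lower numbered 10 in the main fit and 9 to 11 in the alternatives, with 9 by DESeq2 and by each limma fit. The ratio shifts kept their direction in 40 of 40 values, but Ucma to Mgp was -0.43 with a pseudocount of 1. The share of higher genes among all calls was 41.2% and reached 57.8% with limma on log2(FPKM + 1), 50.6% with 0.1, 50.1% with 0.01, 52.2% without 2-month replicate 2 and 50.4% without both libraries, while the all-gene median stayed between -0.07 and 0.09. Over all genes 7401 were called, from 5258 to 9778 in the alternatives. Libraries with the same replicate number did not deviate together (correlations of 0.09, 0.09 and -0.09), so the numbers were not read as pairs, and with the replicate block 6032 genes and 5 members lower were called, with Ucma at -5.29 and Phospho1 at -0.39. The fold limit of 1 bars a call at the size of the Phospho1 difference (-0.67), whose SE was 0.52 with all libraries and 0.20 without 2-month replicate 2.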
